A study of Mus musculus with 8 samples.

Results

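Retinoic acid is made, cleared and sensed by a small set of genes, and 10 of them were followed here through the 20 cell types of the mouse primary visual cortex (V1). The members were taken by name from the 26711 features of the deposited matrix: the enzymes of synthesis Rdh10, Aldh1a1, Aldh1a2 and Aldh1a3, the degrading enzyme Cyp26b1, and the receptors Rara, Rarb, Rxra, Rxrb and Rxrg. All 10 were found. The rule names genes and uses no measured value, although the set was picked with earlier results of these data known.

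Retinol, the transport form of vitamin A, is first oxidised to retinal, a step in which RDH10 acts, and retinal dehydrogenases of the ALDH1A family then oxidise retinal to retinoic acid. CYP26 enzymes hydroxylate retinoic acid and so clear it. Retinoic acid enters the nucleus and binds retinoic acid receptors (RARs), which sit on DNA as heterodimers with retinoid X receptors (RXRs), commonly on direct repeats of a short half-site, and the gene of RARβ is itself a classical target. In brain, the meninges are a known source of retinoic acid, Aldh1a1 is used as a marker of mature cortical astrocytes, and RARα takes part in the homeostatic scaling of synapses when neuronal activity falls.

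The mice were homozygous for a loxP-flanked glucocorticoid receptor gene (GRfl/fl), controls included, and were taken at postnatal day 21. At birth they received an AAV2/5 virus in which the GfaABC1D promoter, an astrocyte promoter derived from human GFAP, drove either Cre (GR-KO) or the inactive ΔCre (GR-Con), each followed by a membrane-targeted eGFP (eGFP-CAAX). Rearing was either normal (NR) or in darkness (DR). Both vectors were used under both rearings, which gave 4 groups, each of 2 single-nucleus libraries, 1 labelled male and 1 female. By the study's methods each group held 2 mice, and so 1 a library. By the study's methods the nuclei were sorted as DRAQ5-positive and GFP-negative, DRAQ5 being a DNA dye. A membrane form of eGFP need not mark the nucleus, so this sort need not remove transduced astrocytes. The virus may not reach every astrocyte, so the GR-KO libraries may hold astrocytes that kept the gene, and the share reached was not measured here.

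The 8 libraries held 102330 nuclei, 9517 to 15161 each, with 168632129 to 288774016 UMIs (unique molecular identifiers, each counting 1 captured transcript). Of 45 marker genes of the deposited types, 42 were highest in the type they mark. The exceptions were Rorb and Rspo1, markers of layer 4 neurons that were highest in astrocytes, and Fezf2. Barcode sequences found in more than 1 library covered 2.40% of nuclei. Some libraries stood apart in their rarer cells. NR GR-KO female held 59 L5PT neurons, the pyramidal-tract cells of layer 5, against 384 to 504 in the others. It also had the highest median depth, 29223 UMIs a nucleus. NR GR-Con male, NR GR-KO male and DR GR-Con female held 2 to 4 microglia, against 573 to 948 in the other 5, and DR GR-Con female held 3 vascular leptomeningeal cells (VLMCs, the fibroblasts of the meninges and larger vessels). In the VLMC nuclei the summed level of 9 neuronal transcripts was 9573 to 14073 UMIs per 1000000 (CPM) in the 4 NR libraries and in DR GR-Con female, as high as in Pvalb interneurons (10726 to 12173 CPM), and 1741 to 3409 CPM in the other 3 DR libraries. The 4 VLMC markers were present in every library but ran the other way, from 142 to 618 CPM in the first 5 and from 998 to 1200 CPM in the last 3. Nuclei under the label VLMC thus held neuronal transcripts to an unequal degree, and the VLMC values below carry that limit.

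The targeted gene Nr3c1, which encodes GR, stood at 231 and 221 CPM in NR GR-Con astrocytes (male, then female), 284 and 268 in NR GR-KO, 263 and 207 in DR GR-Con, and 274 and 275 in DR GR-KO. The GR-KO libraries were thus no lower, with a difference over both rearings of 0.23 on the log2 scale (SE 0.12, adjusted p = 0.36). These counts are taken mainly near the 3′ end and in introns of the transcript and do not check the deletion. UMIs of Cre were found in the 4 GR-KO libraries, in 3.09% to 7.36% of astrocyte nuclei, and in none of the GR-Con astrocytes.

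Levels are given as CPM, the UMIs of a gene per 1000000 UMIs summed over all nuclei of a type in a library, and as mean ± SD over n = 8 libraries unless stated, libraries with few nuclei of a rare type included. They are not divided by transcript length, so each gene is compared with itself across types. The order of the types is a description without a test.

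Of the retinal dehydrogenases, Aldh1a1 and Aldh1a2 were concentrated in few types. Aldh1a1 was highest in astrocytes (257 ± 151 CPM) and VLMCs (191 ± 147 CPM). These ranges overlapped, and astrocytes were the higher of the pair in 5 of 8 libraries. Pericytes with smooth muscle cells (20.9 ± 24.7 CPM) and endothelial cells (20.5 ± 18.4 CPM) came next and did not separate from each other or from L6IT neurons, the intratelencephalic cells of layer 6, which were the highest neurons (16.3 ± 6.18 CPM). L6IT neurons exceeded the next type, oligodendrocytes (6.04 ± 1.78 CPM), in 8 of 8 libraries. The remaining neuron types averaged between 1.23 CPM in Sst interneurons and 5.94 CPM in L6b neurons.

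Free RNA from broken cells gives every droplet some UMIs of abundant transcripts, so the neuronal values were set beside 4 astrocyte markers. In Pvalb interneurons Aldh1a1 stood at 0.623% of its astrocyte level and the summed markers at 0.698% of theirs. In Sst, Vip, Lamp5 and L6CT neurons too the mean shares were low, 0.491% to 1.03% for Aldh1a1 and 0.417% to 1.59% for the markers. The Aldh1a1 share was the larger in 3 of 8 libraries in Pvalb, 5 in Sst, 5 in Vip, 0 in Lamp5 and 1 in L6CT neurons. In L6IT neurons Aldh1a1 stood at 8.36% of the astrocyte level and the markers at 0.633%, and the Aldh1a1 share was the larger in 8 of 8 libraries. The same order held in 8 of 8 libraries, at smaller Aldh1a1 shares of 1.42% to 2.55%, in L2/3, L4, L5IT, L5PT, L5NP and L6b neurons. In oligodendrocyte precursors Aldh1a1 stood at 2.05% and the markers at 9.25% of their astrocyte levels, with Aldh1a1 the larger in 0 of 8 libraries. In microglia these were 2.62% and 8.65% (1 of 8), and in oligodendrocytes 3.18% and 2.54% (4 of 8). In vascular types the markers were less clearly apart from Aldh1a1. Endothelial cells held Aldh1a1 at 7.14% and the markers at 6.39% of their astrocyte levels (Aldh1a1 the larger in 4 of 8 libraries), and pericytes with smooth muscle cells 9.89% and 5.02% (3 of 8). In VLMCs the markers reached 36.8%, beside 102% for Aldh1a1 (7 of 8).

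Aldh1a2 was almost restricted to VLMCs, the cells in which it is known to be made (294 ± 141 CPM, higher than the next type in 8 of 8 libraries). In no other type did its mean pass 2.40 CPM. Aldh1a3 was sparse throughout. Its VLMC mean of 2.82 ± 1.93 CPM rested on 0 to 2 UMIs a library, and the only neuronal type near 1 CPM was L2/3 (0.992 ± 0.633 CPM, 14 to 151 UMIs a library). Rdh10, which feeds retinal to all 3 dehydrogenases, was found everywhere. Its mean ran from 9.36 CPM in L6b neurons to 27.8 CPM in pericytes with smooth muscle cells, with VLMCs at 25.8 ± 14.7 CPM and astrocytes at 15.3 ± 2.46 CPM, and neighbouring types overlapped.

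Cyp26b1 was highest in VLMCs, unevenly, at 21.9 ± 28.9 CPM. The library values there ran from 0 UMIs in NR GR-KO male and DR GR-Con female to 26 UMIs (86.8 CPM) in DR GR-KO female. Oligodendrocyte precursors (OPCs, 1.82 ± 0.645 CPM), L6CT neurons (1.70 ± 0.878 CPM) and oligodendrocytes (1.25 ± 0.265 CPM) followed with overlapping ranges, and the other types stayed below 1 CPM.

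Among the RARs, Rara fell off gradually from type to type. Astrocytes (9.85 ± 1.80 CPM), VLMCs (9.84 ± 9.63 CPM), L5PT neurons (9.16 ± 2.22 CPM) and L6CT neurons (8.83 ± 4.32 CPM) headed an order whose neighbours overlapped, down to oligodendrocytes at 0.771 CPM. Rarb was far more uneven. VLMCs (155 ± 75.8 CPM), Pvalb interneurons (94.2 ± 10.9 CPM), chandelier cells (87.7 ± 26.0 CPM, 5 to 14 nuclei a library), L5PT neurons (77.8 ± 23.5 CPM), pericytes with smooth muscle cells (63.2 ± 47.0 CPM), Sst interneurons (45.9 ± 5.88 CPM) and astrocytes (34.3 ± 10.3 CPM) made up its upper order. L6CT neurons and microglia lay at its lower end, both at 1.25 CPM. The ranges of Pvalb and Sst interneurons did not overlap (75.7 to 110 against 35.6 to 53.9 CPM).

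Of the RXRs, Rxra had its highest mean in microglia, at 24.4 ± 4.14 CPM in the 5 libraries with at least 10 microglia, then in Vip (21.8 ± 4.56 CPM) and Lamp5 (15.3 ± 3.34 CPM) interneurons. Microglia and Vip interneurons overlapped, and microglia were the higher in 6 of 8 libraries, those with few microglia included. Vip exceeded Lamp5 in 8 of 8 libraries, although the ranges over all libraries overlapped. Rxrb was found in every type. It stood at 27.5 ± 3.80 CPM in microglia of those 5 libraries and between 7.36 and 17.7 CPM in every other type. Rxrg marked OPCs, at 21.4 ± 3.77 CPM and above the next type, Sst interneurons (3.78 ± 1.79 CPM), in 8 of 8 libraries with no overlap.

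**Figure D1:**
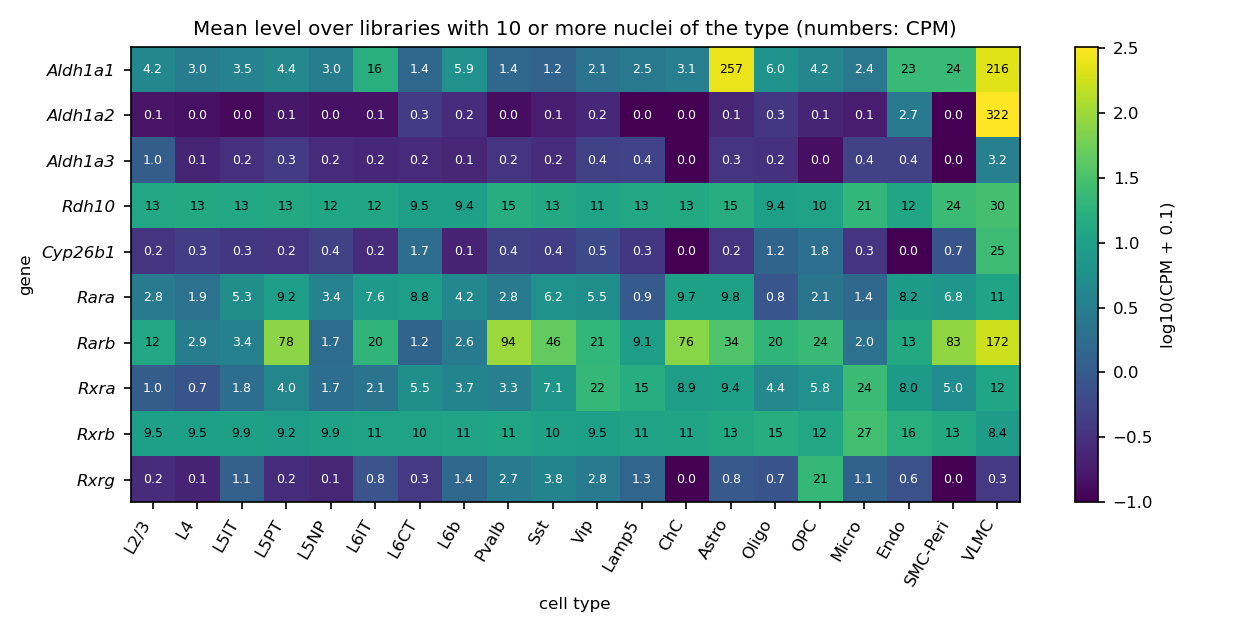
Heat map of the 10 members (rows) in the 20 deposited cell types (columns). Color is log10 of CPM plus 0.1 and the numbers are mean CPM over the libraries with at least 10 nuclei of the type. Aldh1a1 stands out in astrocytes (257 CPM) and VLMCs, Aldh1a2 in VLMCs, Rarb in VLMCs, Pvalb, chandelier and L5PT cells, and Rxrg in OPCs (21.4 CPM).

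The genes whose means over the 20 types were most like those of a member were found by Pearson's r of log2(CPM + 1) among 13672 genes with at least 10 CPM in some type. The points share libraries and the values are a description. For Aldh1a1 these were Rfx2 (r = 0.95), Lxn (0.93) and the connexin gene Gjb6 (0.92). For Aldh1a2 they were Prdm6, Spo11 and Slc22a6 (each r = 1.00). For Cyp26b1 they were Wnt6 (0.95), 2810433D01Rik (0.94) and Cdh3 (0.92). For Rxrg the first was Ugdh (0.91), then B3gat2 (0.83) and Gm11650 (0.83). For Rxrb they were Tyrobp (0.96), Gmpr2 (0.95) and C1qb (0.95), of which Tyrobp and C1qb are microglial genes. The profiles used all 8 libraries, those with 2 to 4 microglia included, which put the microglial mean of Rxrb at 58.0 CPM and that of Rxra at 41.0 CPM, well above those of the 5 libraries given earlier, so both matches carry that limit. Rarb (highest r = 0.80, 4921504A21Rik), Rxra (0.83, Tspan18) and Rdh10 (0.89, Gm31718) had no closer match. Rara and Aldh1a3 did not reach 10 CPM in any type.

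The promoters of Aldh1a1 and Rarb are shown because the results turn on their genes. Both were read from RefSeq on GRCm38.p6 as the 250 bases before an annotated start, where 8 of the 10 members had 15 windows (none for Aldh1a3 and Rdh10). Aldh1a1 (chromosome 19, 20492715 to 20643465, plus strand, GENCODE on GRCm38) has 2 such windows, and the one shown is chr19:20601718-20601967 on the plus strand, inside the GENCODE gene and before the downstream start. Capitals mark ATAAAA, which resembles a TATA box, at -30 to -25 from the start. The Rarb window (gene on chromosome 14, 16430839 to 16819156, minus strand) is chr14:16575477-16575726 on the minus strand, and capitals mark a direct repeat of RAR half-sites spaced by 5 bases, at -53 to -37.
Aldh1a1: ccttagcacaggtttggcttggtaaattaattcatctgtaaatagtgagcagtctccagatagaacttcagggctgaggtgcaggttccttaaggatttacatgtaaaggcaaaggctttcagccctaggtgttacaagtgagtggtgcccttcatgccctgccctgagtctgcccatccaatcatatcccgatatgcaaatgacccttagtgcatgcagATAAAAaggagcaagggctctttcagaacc
Rarb: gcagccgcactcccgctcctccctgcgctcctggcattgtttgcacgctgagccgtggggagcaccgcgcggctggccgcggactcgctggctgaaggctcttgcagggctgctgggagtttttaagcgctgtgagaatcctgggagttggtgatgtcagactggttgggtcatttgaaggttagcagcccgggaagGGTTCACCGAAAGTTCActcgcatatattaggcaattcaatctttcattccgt
The repeat was searched on both strands, in any pairing among the half-site AGGTCA and its variants AGTTCA, also GGTTCA, also GGGTCA. Pairs of variants without AGGTCA counted too, as in the Rarb repeat shown. Of 32817 windows of the genome, 29 (0.0884%) held one, and Rarb was the only member among them. The single half-site AGAACA of the glucocorticoid receptor, searched on both strands, was in 16.1% of all windows and in 0 of the 15 member windows. Searched alone, and so overlapping with the repeat, the half-site AGGTCA was in 14.0% of all windows and the variant AGTTCA in 11.9%, and neither was in an Aldh1a1 window. The variants GGTTCA and GGGTCA were not counted alone. The Aldh1a1 sequence shown holds GGGTCA on its other strand, printed as tgaccc. A match describes letters and not a bound site, and these windows are a small part of each locus.

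The first comparison asked whether loss of GR from astrocytes changed the members there. In NR astrocytes Aldh1a1 was at 500 CPM in GR-Con male and 475 CPM in GR-Con female. It was at 199 CPM in GR-KO male and 262 CPM in GR-KO female. Both GR-KO libraries lay far below both GR-Con libraries. The log2 fold change was -1.14 (SE 0.19, adjusted p = 1.1e-07, n = 2 and 2) by the likelihood ratio test of edgeR, with Benjamini-Hochberg adjustment over all genes tested in the type. Each such result was also fitted under alternatives, namely 2 other tests (the quasi-likelihood test of edgeR and DESeq2), another normalisation, no filter on low counts, sex as a term, a shared estimate of the spread, and each library left out in turn. Where leaving out a library ended a call, that library is named below, and calls that another test or setting ended are named or have their range of adjusted p given. For Aldh1a1 the adjusted p lay between 3.5e-31 and 0.0077 over these 10 alternatives. Aldh1a1 was already known from these libraries when the members were chosen, so this is not independent evidence of its direction. Fewer transcribing astrocytes and less RNA in each cannot be told apart in such sums.

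Rxra also fell in NR GR-KO astrocytes. It was at 16.4 CPM (male) and 8.81 CPM (female) in GR-Con, and at 7.71 CPM (male) and 4.14 CPM (female) in GR-KO. The groups did not overlap, although NR GR-Con female and NR GR-KO male lay close to each other. This was a log2 fold change of -1.18 (SE 0.36, adjusted p = 0.020), with adjusted p between 3.1e-07 and 0.52 over 10 alternatives. The call was lost with the quasi-likelihood test, DESeq2 and the shared spread, and without NR GR-Con male (-0.68) or without NR GR-KO female (-0.80).

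These 2 genes were the members called, both lower, of the 6 that passed the filter on low counts in astrocytes, and 7.11% of the 14493 genes tested there were called. Aldh1a2, Aldh1a3, Cyp26b1 and Rxrg did not pass the filter. Rdh10 (log2 fold change 0.18, SE 0.21), Rara (0.21, SE 0.22), Rarb (0.00, SE 0.17) and Rxrb (0.11, SE 0.20) were not called. The median over the 6 was 0.06, beside 0.00 over all genes tested. In the same astrocytes the 9 neuronal transcripts summed to 1840 and 1916 CPM in GR-KO and to 1081 and 934 CPM in GR-Con. The 4 astrocyte markers summed to 3181 and 3228 CPM in GR-KO and to 3656 and 3362 CPM in GR-Con, none of them at 0. Median UMIs per nucleus were 8662 and 12124 in GR-KO against 6267 and 5587 in GR-Con. The part of these shifts in the results was not tested.

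In DR astrocytes none of the 6 members was called between genotypes, by edgeR or by DESeq2, and 0.736% of 14139 genes were called. None of the 6 had an unadjusted p under 0.05, beside 868 of the 14139 genes. Aldh1a1 was at 220 CPM (male) and 109 CPM (female) in DR GR-Con and at 141 CPM (male) and 148 CPM (female) in DR GR-KO. The GR-KO libraries lay between the GR-Con pair (log2 fold change -0.17, SE 0.35, adjusted p = 1.0). The sign rested on which GR-Con library was kept. Without DR GR-Con female the fold change was -0.61, and without DR GR-Con male it was 0.46, each with 1 GR-Con library left. Rarb between genotypes in DR likewise went from 0.39 (SE 0.52, adjusted p = 1.0) to 1.53 without DR GR-Con male, which left DR GR-Con female alone in its group. Rxra was at 12.7 and 9.18 CPM in DR GR-Con and at 7.14 and 8.91 CPM in DR GR-KO, apart but close (-0.42, SE 0.33, adjusted p = 1.0).

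The effects of genotype under the 2 rearings were then set against each other. For Aldh1a1 the NR fold change less the DR fold change was -0.98 on the log2 scale (SE 0.43, unadjusted p = 0.022, adjusted p = 0.78), which did not pass. Without DR GR-Con male, which left DR GR-Con female alone in its group, this was -1.60. For Rarb it was -0.39 (SE 0.60, adjusted p = 1.0) with all libraries and -1.53 without DR GR-Con male. For Rxra it was -0.76 (SE 0.54, adjusted p = 1.0). No member was called in this interaction by edgeR, or by DESeq2, which gave 4 of the 6 an adjusted p, and 0.386% of astrocyte genes were called. An unadjusted p under 0.05 in the likelihood ratio test was found for 1 of the 6 and for 727 of all 14754 genes. Over both rearings, with rearing as a term, GR-KO differed from GR-Con by -0.66 in Aldh1a1 (SE 0.26, adjusted p = 0.15) and by -0.80 in Rxra (SE 0.29, adjusted p = 0.088). Neither passed, while 4.80% of astrocyte genes did. Rxra reached the threshold with the sex term, which pairs libraries of like sex (-0.77, adjusted p = 0.050, between 0.0055 and 0.47 over 13 alternatives). Without DR GR-Con female both were called (Aldh1a1 -0.93, adjusted p = 3.7e-08, and Rxra -0.96, adjusted p = 0.0055).

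Dark rearing lowered Aldh1a1 in astrocytes of both genotypes. In GR-Con it was at 500 and 475 CPM in NR and at 220 and 109 CPM in DR, with no overlap. There the log2 fold change was -1.57 (SE 0.36, adjusted p = 0.012, between 6e-21 and 0.99 over 10 alternatives), in a comparison that called 0.147% of 14252 genes. The quasi-likelihood test, which called 0 genes there, did not keep it, nor did the fits without NR GR-Con male (adjusted p = 0.41) or without NR GR-Con female (0.84). In GR-KO it was at 199 and 262 CPM in NR and at 141 and 148 CPM in DR, again with no overlap. That fold change was -0.60 (SE 0.16, adjusted p = 0.012, between 1.2e-09 and 0.70 over 10 alternatives), where 2.85% of genes were called. Leaving out NR GR-KO female (-0.38), DR GR-KO male (-0.54) or DR GR-KO female (-0.66) ended the call, as did the shared spread.

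Over both genotypes the Aldh1a1 change with dark rearing was -1.09 (SE 0.26, adjusted p = 0.0075, between 3.2e-05 and 0.17 over 13 alternatives), where 0.917% of genes were called. The rearing groups overlapped, since NR GR-KO male lay below DR GR-Con male. The quasi-likelihood test and DESeq2 did not call it, nor did the fits without NR GR-Con male (adjusted p = 0.067) or NR GR-Con female (0.051). The comparison of genotype in NR and that of rearing in GR-Con share the NR GR-Con libraries, which held the highest values of the 8.

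The receptors and Rdh10 were not called with rearing in astrocytes when all libraries were used. Rarb was at 41.1, 36.6, 45.8 and 36.0 CPM in the NR libraries and at 38.1, 11.6, 35.3 and 29.8 CPM in the DR libraries, and DR GR-Con female lay far below the other 7. The fold change in GR-Con was -0.64 (SE 0.51, adjusted p = 1.0) with both DR libraries and -1.78 with DR GR-Con female as the only DR library. DR GR-Con female was also the lowest of the 8 in Aldh1a1 and in the summed astrocyte markers (2674 CPM against 3181 to 3656 CPM). Rdh10 ran from 10.7 to 16.2 CPM in NR and from 15.6 to 18.8 CPM in DR (over both genotypes 0.34, SE 0.16, adjusted p = 0.41). Within GR-KO, Rxra differed by 0.55 (SE 0.31, adjusted p = 0.43), and with NR GR-KO female as the only NR library by 1.02. Over both genotypes Rxra (0.15, SE 0.28), Rara (-0.08, SE 0.20) and Rxrb (-0.09, SE 0.14) were closer to 0, and Rxrb stayed between 12.4 and 16.1 CPM in all 8 libraries.

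**Figure D2:**
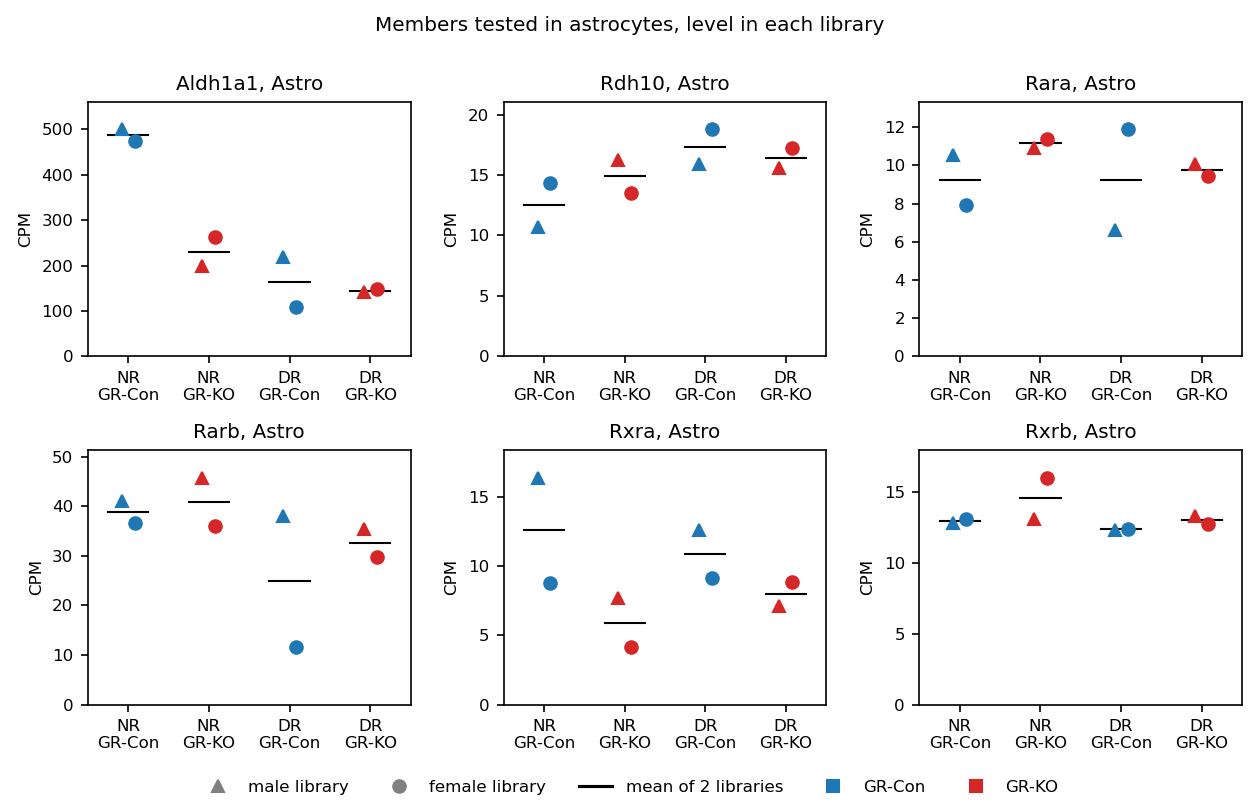
CPM of the 6 members tested in astrocytes, 1 panel a gene, by group (horizontal axis). Triangles are male and circles female libraries, blue is GR-Con and red GR-KO, and bars are means of 2 libraries. Aldh1a1 is near 500 CPM only in the NR GR-Con pair, and DR GR-Con female is the low point of Rarb at 11.6 CPM.

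Aldh1a1 was also read per nucleus. With every astrocyte nucleus thinned to 1000 UMIs, the expected share of nuclei with an Aldh1a1 UMI was 34.6% and 31.6% in NR GR-Con (male, then female), 15.6% and 18.9% in NR GR-KO, 16.9% and 9.34% in DR GR-Con, and 10.9% and 11.8% in DR GR-KO. No nucleus was left out at that depth. The 4 GR-KO libraries averaged 14.3% ± 3.69 and the 4 GR-Con libraries 23.1% ± 11.99 (SD, n = 4 each), a difference of -8.83 percentage points (exact permutation test, two-sided, p = 0.31). That test pooled both rearings and so counts the difference between rearings as spread. Within NR both GR-KO libraries lay below both GR-Con libraries, and within DR they lay between the GR-Con pair. Unthinned shares were 31.7% to 77.2%, at median depths of 4889 to 12124 UMIs. In excitatory neurons, of which all but the L6CT type held Aldh1a1 at a larger share of its astrocyte level than the markers, the thinned share was 0.327% to 0.624% at median depths of 16939 to 34310 UMIs, and the unthinned share 4.38% to 11.6%.

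The virus also allows a comparison within a library, between astrocyte nuclei with and without a UMI of the viral eGFP. Nuclei with one were 4.18% to 11.98% of astrocyte nuclei, and since the transcript is sparse, nuclei without a UMI may still be transduced. Free viral RNA may also give a UMI to a nucleus that was not transduced, and its share is not given here. In the GR-KO libraries Aldh1a1 stood at 142 CPM with and 206 CPM without an eGFP UMI in NR male, at 203 and 267 CPM in NR female, at 95.1 and 146 CPM in DR male, and at 88.6 and 151 CPM in DR female. All 4 were lower with the eGFP UMI. In the GR-Con libraries the values were 504 and 500 CPM in NR male, 494 and 474 CPM in NR female, 287 and 217 CPM in DR male, and 95.8 and 110 CPM in DR female, lower with it in 1 of 4. The log2 ratio was -0.58 ± 0.15 (SD, n = 4) in GR-KO and 0.07 ± 0.25 (SD, n = 4) in GR-Con, without overlap. The exact two-sided permutation test, chosen after these values were seen, gave p = 0.029, the smallest that 4 against 4 can give. The 36 to 255 Aldh1a1 UMIs in nuclei with eGFP limit the single ratios.

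**Figure D3:**
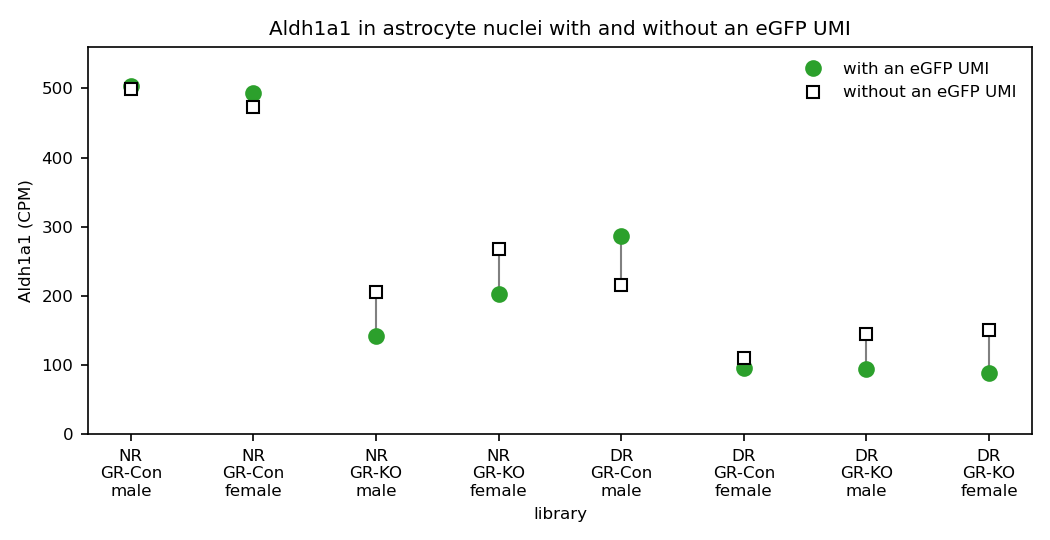
Aldh1a1 in CPM (vertical axis) in astrocyte nuclei with an eGFP UMI (green circles) and without one (open squares), joined by a line for each of the 8 libraries. The green circle is the lower in all 4 GR-KO libraries and in 1 of the 4 GR-Con libraries.

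Outside astrocytes, where the vector's promoter is not meant to act, few members were called between genotypes by the likelihood ratio test, and the number depended on the fit. In NR, 1 of 93 pairs of member and type was called (1.08%), and 0.370% of all 210568 pairs of gene and type were. It was 0 with the quasi-likelihood test and DESeq2 and 6 with the sex term. The share of all pairs called in those fits is not given here, so these counts are no result about the members alone. The 1 pair was Aldh1a1 in Pvalb interneurons, at 3.43 and 2.17 CPM in GR-Con and 0.523 and 0.908 CPM in GR-KO, apart but on 7 to 35 UMIs a library. Its log2 fold change was -2.04 (SE 0.47, adjusted p = 0.010, between 0.0013 and 1.0 over 10 alternatives). It was lost with the quasi-likelihood test and DESeq2, and without NR GR-Con male (-1.66) or NR GR-KO male (-1.60). Aldh1a1 did not pass the filter on low counts in Pvalb interneurons in the fit of the GR-KO libraries alone. It may thus have passed here through the GR-Con pair, where it was higher. Pvalb interneurons are a type in which Aldh1a1 and the astrocyte markers stood at like shares of their astrocyte levels. The summed markers there were at 39.1 and 21.1 CPM in NR GR-Con and at 19.3 and 22.8 CPM in NR GR-KO, and their part was not tested. Aldh1a1 had a fold change below 0 in 14 of 15 types other than astrocytes in NR, of which only that of Pvalb was called. Over the same libraries its astrocyte mean went from 487 CPM in GR-Con to 230 CPM in GR-KO. The part of free astrocyte RNA in these signs was not tested.

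In DR, 2 of 89 pairs were called between genotypes (2.25%, beside 0.496% of all pairs), in opposite directions. The number was 0 with the quasi-likelihood test, 1 with DESeq2 and 5 with the sex term, again without the share of all pairs in those fits. Rxra was higher in GR-KO in L6CT neurons, the corticothalamic cells of layer 6, at 5.04 and 4.79 CPM in GR-Con and 10.2 and 8.76 CPM in GR-KO. The groups were well apart (0.95, SE 0.21, adjusted p = 0.0026, between 0.00015 and 1.0 over 10 alternatives). The quasi-likelihood test and the fits without DR GR-KO male or DR GR-KO female did not keep the call. Rxrg was lower in GR-KO in L4 neurons on 16 and 15 against 3 and 0 UMIs, at most 0.344 CPM (adjusted p = 0.035, between 0.011 and 1.0 over 9 alternatives), and was lost with the quasi-likelihood test, no filter and the shared spread, and without DR GR-Con male or DR GR-KO female. It had passed the filter through the GR-Con pair, where it was higher. No pair was called over both rearings or in the interaction, by either edgeR test or by DESeq2, while 0.0739% and 0.166% of all pairs were by the likelihood ratio test. At an unadjusted p under 0.05 stood 9 of 87 and 14 of 92 pairs, and the like share over all pairs is not given here.

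With dark rearing more pairs were called than between genotypes, of the members and of all genes alike. The larger number is thus no result about the members alone. Over both genotypes 8 of 87 pairs were called, all higher in DR and in 4 genes (9.20%, beside 5.72% of 197617 pairs). In GR-Con 8 of 88 were called, 6 higher and 2 lower (9.09%, beside 2.40%), and in GR-KO 11 of 89, all higher (12.4%, beside 3.71%). The quasi-likelihood test called 5, 1 and 3 pairs and DESeq2 6, 3 and 5, again without the share of all pairs in those fits. Over both genotypes each of those tests called 1 pair that the likelihood ratio test did not, Rxrb in L2/3 neurons, which was lower in DR.

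Of the enzymes of synthesis, Aldh1a3 rose in L2/3 neurons, upper-layer cells that project within cortex. It was at 0.310 and 0.275 CPM in NR GR-Con, 0.724 and 0.704 CPM in NR GR-KO, 0.964 and 1.86 CPM in DR GR-Con, and 1.94 and 1.16 CPM in DR GR-KO. All 4 DR libraries lay above all 4 NR libraries. The log2 fold change over both genotypes was 1.64 (SE 0.33, adjusted p = 4.2e-05, between 5.8e-07 and 0.015 over 13 alternatives), in a type where 16.3% of 18384 genes were called. Within GR-Con it was 2.22 (SE 0.45, adjusted p = 5.6e-05, at most 0.063 over 10 alternatives, by the quasi-likelihood test) and within GR-KO 1.16 (SE 0.35, adjusted p = 0.018). The GR-KO call, with adjusted p between 0.0022 and 0.58 over 10 alternatives, was lost with the quasi-likelihood test and without NR GR-KO male, NR GR-KO female or DR GR-KO male (0.77). The NR GR-KO pair lay above the NR GR-Con pair by 1.25, which did not pass (adjusted p = 0.090). No type other than L2/3 had enough Aldh1a3 to pass the filter over all 8 libraries.

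Aldh1a1 mostly had the opposite sign. Its fold change was below 0 in 10 of the 11 types other than astrocytes that were tested over both genotypes, with a median of -0.40 and none called (lowest adjusted p = 0.064, in L4). Over the same libraries Aldh1a1 was lower in astrocytes too (-1.09), and the part of free astrocyte RNA in these signs was not tested. In GR-Con it was called in L5PT neurons, the pyramidal-tract cells of layer 5, at 7.94 and 6.41 CPM in NR and 3.71 and 1.36 CPM in DR. The groups did not overlap (-1.51, SE 0.43, adjusted p = 0.018, between 9.7e-11 and 0.31 over 10 alternatives). The call was lost with the quasi-likelihood test and DESeq2, and without NR GR-Con male or NR GR-Con female. Over the same libraries the astrocyte markers in L5PT nuclei were 19.2 and 16.7 CPM in NR and 8.35 and 12.8 CPM in DR, and their part was not tested. Rdh10 was called in no type, and its fold changes over both genotypes lay between -0.22 and 0.26 in 14 types other than astrocytes.

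The degrading enzyme Cyp26b1 was called higher with dark rearing in L6CT neurons of GR-KO. It was at 1.55 and 1.33 CPM in NR GR-KO and at 3.03 and 3.05 CPM in DR GR-KO, with the GR-Con libraries at 1.41 and 1.23 CPM in NR and 1.43 and 0.578 CPM in DR. The DR GR-KO pair was the highest of the 8 (1.09, SE 0.25, adjusted p = 0.00098, between 0.00087 and 0.10 over 10 alternatives). It was lost with the quasi-likelihood test, DESeq2 and the shared spread, and without DR GR-KO male or DR GR-KO female, and the interaction of genotype and rearing did not pass (adjusted p = 0.75). Aldh1a2 was called in the same cells and comparison (adjusted p = 0.038, between 0.037 and 0.61 over 9 alternatives) on 7 and 6 UMIs in NR and 9 and 17 in DR, and was lost with the quasi-likelihood test, with no filter and without any 1 of the 4 libraries. In L6CT neurons Aldh1a2 passed the filter on low counts only in fits that held the DR GR-KO pair, where it was higher. This call thus describes sparse counts.

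In VLMCs, where the dehydrogenases were high, Aldh1a1, Aldh1a2 and Rarb were called higher with dark rearing in GR-KO, the only genotype with enough VLMCs for that test, where 19.9% of 6109 genes were called. Aldh1a1 was at 77.5 and 107 CPM in NR and at 325 and 424 CPM in DR (1.74, SE 0.34, adjusted p = 9.7e-06, at most 0.0090 over 9 alternatives). Aldh1a2 was at 213 and 159 CPM in NR and at 347 and 484 CPM in DR (0.94, SE 0.34, adjusted p = 0.035, between 0.031 and 0.45 over 9 alternatives). This call was lost in 6 of the 9, namely with the sex term (adjusted p = 0.063), the quasi-likelihood test, DESeq2 and no filter, and without NR GR-KO female or DR GR-KO female. Rarb was at 102 and 112 CPM in NR and at 221 and 267 CPM in DR (0.94, SE 0.30, adjusted p = 0.013, between 0.015 and 0.35 over 9 alternatives), and was lost with DESeq2, with no filter and without any 1 of the 4 libraries. The make-up of the nuclei differed over the same libraries. The 20 and 47 NR nuclei held 10670 and 14073 CPM of neuronal transcripts, and the 53 and 65 DR nuclei 1741 and 2099 CPM. VLMC markers went from 459 and 565 CPM to 1200 and 998 CPM, and astrocyte markers from 863 and 926 CPM to 2079 and 2173 CPM. All 3 genes thus moved with those lists, whose part was not tested.

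Rara was called higher with dark rearing over both genotypes in L2/3 and Pvalb neurons. In L2/3 it was at 1.44 and 2.08 CPM in NR GR-Con, 2.05 and 1.34 CPM in NR GR-KO, 1.76 and 4.46 CPM in DR GR-Con, and 5.33 and 3.85 CPM in DR GR-KO. DR GR-Con male lay within the NR range, and the other 3 DR libraries lay above it. Over both genotypes the log2 fold change was 1.13 (SE 0.33, adjusted p = 0.0074, between 1.1e-07 and 0.088 over 13 alternatives), and it was lost without NR GR-KO female (0.95), DR GR-Con female (0.93) or DR GR-KO male (0.97). In GR-KO alone it was 1.49 (SE 0.31, adjusted p = 0.00015, at most 0.10 over 10 alternatives), and was lost with the quasi-likelihood test and without DR GR-KO male. In GR-Con alone it was 0.77 (SE 0.48, adjusted p = 0.45). In Pvalb interneurons Rara was at 2.25, 1.33, 1.64 and 0.568 CPM in the NR libraries and 2.83, 3.54, 5.14 and 5.19 CPM in the DR libraries, with no overlap. The fold change there was 1.47 (SE 0.32, adjusted p = 0.0011, where 3.25% of genes were called), and within GR-KO 2.14 (SE 0.37, adjusted p = 1.5e-05). Within GR-Con it was 0.80 (SE 0.36, adjusted p = 0.40), and the interaction was called in neither type. Both Pvalb calls were kept without each library in turn and lost with the quasi-likelihood test (adjusted p = 0.050 and 0.058, the highest of 12 and 9 alternatives).

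In L6IT and L5IT neurons Rara was not called over both genotypes. In L6IT neurons it was at 4.68, 2.71, 8.01 and 2.57 CPM in NR, at 2.67 CPM in DR GR-Con male and at 13.0, 13.9 and 13.0 CPM in the other 3 DR libraries (1.20, SE 0.46, adjusted p = 0.092). In L5IT neurons the values were 4.35, 3.46, 4.77 and 3.12 CPM in NR, 3.65 CPM in DR GR-Con male and 6.22, 7.37 and 9.11 CPM in the others (0.70, SE 0.26, adjusted p = 0.092). In both types DR GR-Con male lay within the NR range. The L5IT difference was called in GR-KO alone (1.04, SE 0.32, adjusted p = 0.046, between 0.0028 and 0.86 over 10 alternatives) and lost with the quasi-likelihood test, DESeq2, no filter and the shared spread, and without NR GR-KO female, DR GR-KO male or DR GR-KO female. Nor was Rara called over both genotypes in L6CT neurons (0.80, SE 0.32, adjusted p = 0.074). Fold changes of Rara were above 0 in 10 of the 11 types other than astrocytes tested over both genotypes, with a median of 0.70, and 2 were called. Between genotypes Rara was called in no type.

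Rarb was called in both directions. In L6IT neurons it was at 9.41 and 12.2 CPM in NR GR-Con, 13.1 and 18.2 CPM in NR GR-KO, 29.4 and 22.2 CPM in DR GR-Con, and 25.0 and 26.6 CPM in DR GR-KO. The DR and NR libraries did not overlap. Rarb thus had a log2 fold change of 0.98 (SE 0.19, adjusted p = 2.6e-05, between 1.2e-08 and 0.028 over 13 alternatives), where 6.80% of L6IT genes were called. Within GR-Con it was 1.23 (SE 0.26, adjusted p = 0.00045, at most 0.32 over 10 alternatives), lost with the quasi-likelihood test and without NR GR-Con male (1.05). Within GR-KO it was 0.73 (SE 0.21, adjusted p = 0.016, at most 0.32 over 10 alternatives), lost with the quasi-likelihood test, with the shared spread, and without DR GR-KO male or DR GR-KO female.

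In oligodendrocytes Rarb was at 14.2, 10.6, 13.2 and 17.1 CPM in NR and 25.0, 29.0, 14.9 and 35.1 CPM in DR, where DR GR-KO male lay within the NR range. The fold change was 0.93 (SE 0.24, adjusted p = 0.0073, between 1.9e-09 and 0.17 over 13 alternatives), lost with the quasi-likelihood test and without NR GR-Con female, NR GR-KO male or DR GR-KO female (0.67). Within GR-Con it was 1.08 (SE 0.24, adjusted p = 0.0035, between 0.00017 and 1.0 over 10 alternatives), lost with the quasi-likelihood test, DESeq2 and the shared spread, and without NR GR-Con male or NR GR-Con female. Within GR-KO it was 0.76 (SE 0.35, adjusted p = 0.27). Vip interneurons went the other way in GR-Con, from 26.0 and 24.7 CPM in NR to 14.3 and 15.5 CPM in DR (-0.76, SE 0.19, adjusted p = 0.017, between 0.012 and 1.0 over 10 alternatives), a call lost with the quasi-likelihood test, DESeq2 and the shared spread, and without NR GR-Con male, NR GR-Con female or DR GR-Con male. In GR-KO the Vip value was 0.15 (SE 0.26, adjusted p = 0.96), and over both genotypes -0.31 (SE 0.20, adjusted p = 0.57). Pvalb interneurons had the highest mean Rarb of the neurons but overlapped with chandelier cells, above which they lay in 4 of 8 libraries. In Pvalb interneurons Rarb was at 97.0 to 110 CPM in NR and 75.7 to 99.3 CPM in DR and was not called (-0.21, SE 0.10, adjusted p = 0.27).

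**Figure D4:**
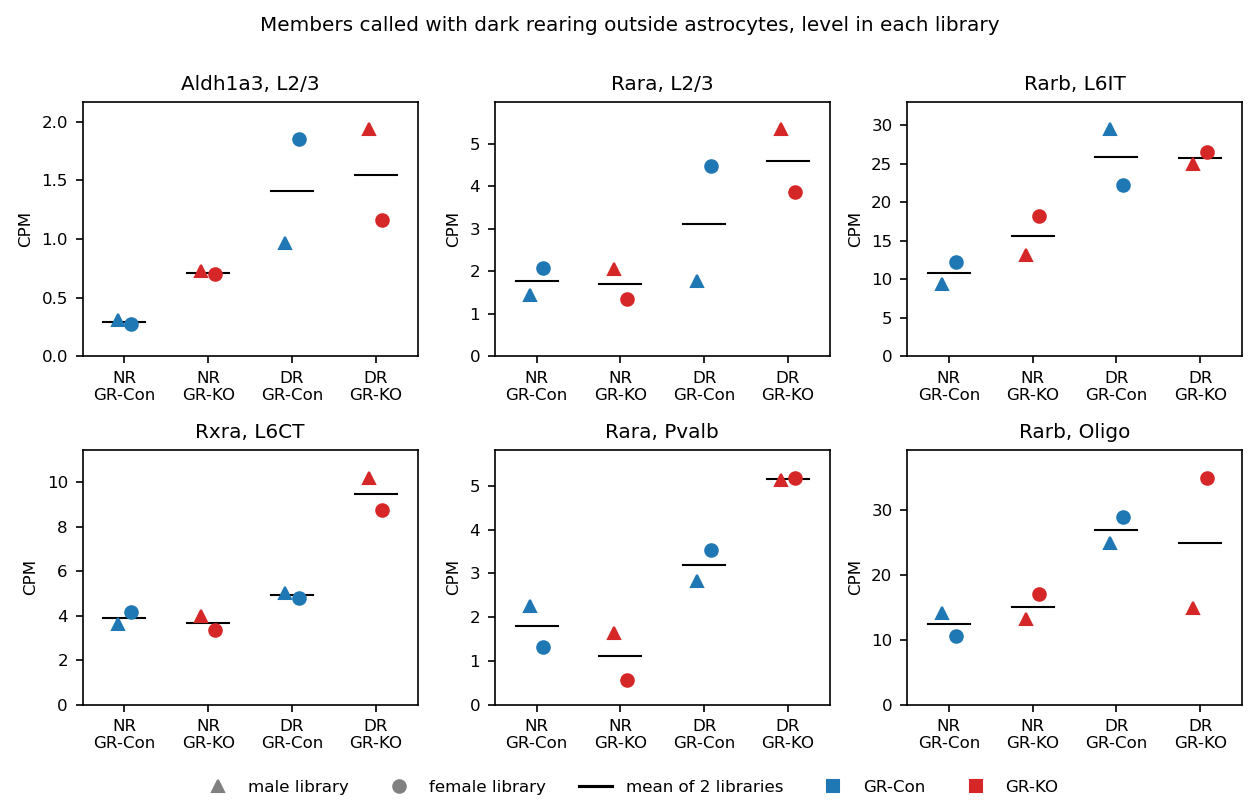
CPM by group for Aldh1a3 and Rara in L2/3 neurons, Rarb in L6IT neurons, Rxra in L6CT neurons, Rara in Pvalb interneurons and Rarb in oligodendrocytes, with symbols for sex (triangle male, circle female), color for genotype (blue GR-Con, red GR-KO) and bars for means of 2 libraries. In the L2/3 panel of Rara the DR GR-Con male library (1.76 CPM) lies among the NR libraries, and in the L6CT panel of Rxra only the DR GR-KO pair is near 10 CPM.

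Of the RXRs, Rxra rose in L6CT neurons, from 3.63, 4.18, 4.00 and 3.36 CPM in NR to 5.04 and 4.79 CPM in DR GR-Con and 10.2 and 8.76 CPM in DR GR-KO. All DR libraries lay above all NR libraries. The log2 fold change was 0.86 (SE 0.22, adjusted p = 0.0026, between 0.00026 and 0.036 over 13 alternatives), in a type where 12.7% of 16343 genes were called. Within GR-KO it was 1.38 (SE 0.20, adjusted p = 5.7e-09, at most 0.043 over 10 alternatives). Within GR-Con it was 0.33 (SE 0.23, adjusted p = 0.72), and the interaction did not pass (-1.05, SE 0.28, unadjusted p = 0.00022, adjusted p = 0.13). In Pvalb interneurons Rxra was at 1.94 to 2.89 CPM in NR and 3.80 to 4.67 CPM in DR (0.70, SE 0.21, adjusted p = 0.035, between 0.034 and 0.21 over 12 alternatives). In Vip interneurons it was at 17.1 to 20.5 CPM in NR and 21.3 to 29.1 CPM in DR (0.49, SE 0.14, adjusted p = 0.041, between 0.0092 and 0.22 over 12 alternatives). The groups did not overlap in either type, but each call was lost with the quasi-likelihood test, with no filter and in 6 of the 8 fits that left out a library. In Pvalb these were all but those without NR GR-Con female or DR GR-Con female, and in Vip all but those without NR GR-KO male or DR GR-KO female, with fold changes of 0.57 to 0.78 and 0.42 to 0.58 over the alternatives. Rxrb was not called in any type by the likelihood ratio test. In L2/3 neurons it was at 9.77 to 10.7 CPM in NR and 8.25 to 8.96 CPM in DR, with no overlap (-0.26, SE 0.10, adjusted p = 0.055), and was called there by the quasi-likelihood test and DESeq2 (adjusted p = 0.032 and 0.025). Its fold change over both genotypes was below 0 in 12 of 14 types other than astrocytes, between -0.49 and 0.02.

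Rxrg was called only where it was scarce. In each such fit it passed the filter on low counts through the group where it was higher, so these calls describe sparse counts. In L5IT neurons it had 0 and 0 UMIs in NR GR-Con, 31 and 0 in NR GR-KO, 20 and 23 in DR GR-Con, and 24 and 2 in DR GR-KO. In GR-Con the DR level was 1.55 CPM and NR held no UMIs (adjusted p = 2.1e-07, at most 0.026 over 10 alternatives), and 6.14% of L5IT genes were called. Set against 3 UMIs over the NR GR-Con pair, that level is 8.70-fold higher. This ratio leaves out the spread between libraries and is no lower bound. In GR-KO 1 library of each rearing carried nearly all of the UMIs. In L4 neurons the GR-Con call rested on 0 and 3 UMIs in NR against 16 and 15 in DR (adjusted p = 0.0010, between 0.00095 and 0.36 over 9 alternatives) and was lost with the quasi-likelihood test and without NR GR-Con male. In L2/3 it rested on 5 and 2 against 16 and 22 UMIs (adjusted p = 0.012, between 0.011 and 0.35 over 9 alternatives) and was lost with the quasi-likelihood test and without NR GR-Con male, NR GR-Con female or DR GR-Con female. In OPCs, its main type, Rxrg ranged from 17.4 to 27.0 CPM over the 8 libraries and was not called in any comparison.

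**Figure D5:**
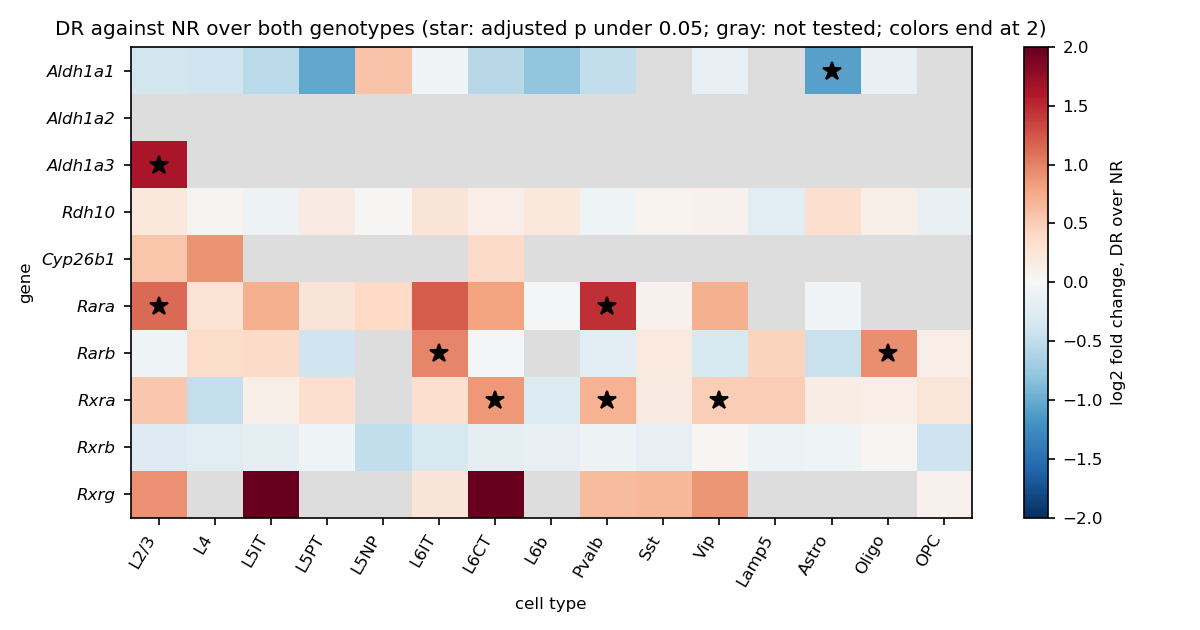
Log2 fold change of DR over NR over both genotypes (color, ending at 2 in either direction) for the 10 members (rows) in the 15 types with at least 10 nuclei in every library (columns). Stars mark adjusted p under 0.05 and gray marks pairs that did not pass the filter. Apart from Aldh1a1 in astrocytes (-1.09), every star lies in a pair that was higher in DR.

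The wider pathway was read from a list of 42 genes: carriers and storage proteins, other retinol dehydrogenases and cleavage enzymes, Cyp26a1 and Cyp26c1, Rarg, coregulators, and nuclear receptors that pair with RXR. In NR astrocytes 2 of 28 tested were called between genotypes, 1 in each direction (7.14%, beside 7.11% of all genes), and both encode fatty acid-sensing partners of RXR. Pparg was at 4.66 and 7.32 CPM in NR GR-Con and at 11.97 and 17.3 CPM in NR GR-KO, and at 5.55 and 6.75 CPM in DR GR-Con and 15.0 and 14.3 CPM in DR GR-KO. The 4 GR-KO libraries lay above the 4 GR-Con libraries. The log2 fold change was 1.24 in NR (SE 0.29, adjusted p = 0.00057), 1.28 in DR (SE 0.29, adjusted p = 0.0025) and 1.26 over both (SE 0.20, adjusted p = 8.4e-08). The DR call was not made by the quasi-likelihood test or DESeq2 (adjusted p = 0.27 and 0.18), and it was the only list gene called in DR astrocytes, of 27. Ppara was at 135 and 138 CPM in NR GR-Con, 73.4 and 84.0 CPM in NR GR-KO, 116 and 107 CPM in DR GR-Con, and 76.9 and 78.1 CPM in DR GR-KO. Here the 4 GR-KO libraries lay below the 4 GR-Con libraries, with a fold change of -0.86 in NR (SE 0.15, adjusted p = 6.5e-07), -0.50 in DR (SE 0.20, adjusted p = 0.39) and -0.69 over both (SE 0.12, adjusted p = 2.7e-06). The interaction was called for neither.

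With dark rearing no list gene was called in astrocytes by edgeR or DESeq2, of 26 in GR-Con, 28 in GR-KO and 27 over both genotypes. Of these, 0, 4 and 1 had an unadjusted p under 0.05. Over all genes these were 623 of 14252, 1967 of 14490 and 1437 of 14402. In the other cell types 5 of 365 pairs of list gene and type were called between genotypes in NR (1.37%, beside 0.370% of all pairs) and 8 of 328 in DR (2.44%, beside 0.496%), where the quasi-likelihood test called 0 in both and DESeq2 1 and 4. Dark rearing over both genotypes called 17 of 336 pairs, 8 higher and 9 lower (5.06%, beside the 5.72% of all pairs).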

How the data were processed

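Nuclei of 8 libraries (4 groups of 2) were profiled with a 10x 3′ kit. Per the labels and the study's methods, the authors aligned reads with Cell Ranger 8.0.1 to mm10 with the viral eGFP added, removed nuclei with too few or too many gene counts and doublets called by DoubletFinder in each sample, and merged and clustered them in Seurat 5.3.0. The deposited matrix holds raw UMI counts, and the deposited cell table names each nucleus's library and cell type, which were used as given. No further filter on nuclei was applied here.

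Counts were summed per library and cell type and tested in edgeR 4.0.16 (R 4.3.3) with the likelihood ratio test, which the study names, and with filterByExpr, TMM and estimateDisp, which were chosen here, where every library of a fit had at least 10 nuclei of the type. A member was called at an adjusted p under 0.05 (Benjamini-Hochberg over all genes tested in that type). The 7 comparisons were genotype in NR and in DR, rearing in GR-Con and in GR-KO, their interaction, and genotype and rearing over all 8 libraries with the other factor as a term. Standard errors (SE) were taken as the absolute log2 fold change over the root of the likelihood ratio statistic. DESeq2 1.42.0 and edgeR's quasi-likelihood test were alternatives, and the code was tested on simulated data. There, in each of the 5 astrocyte comparisons simulated, the share of false calls of the likelihood ratio test was above the nominal level and above that of either alternative. It ran from 12% to 29.9%, against 5.42% to 13.9% for the quasi-likelihood test and 3.37% to 19.7% for DESeq2. The alternatives were thus mostly above the nominal level too. Of simulated 2-fold changes the likelihood ratio test recovered 27% to 83.5%, the quasi-likelihood test 7.5% to 71.5% and DESeq2 24.5% to 72.5%. Each was lowest in the interaction. A call that was lost or not made thus need not mean that there was no change. Calls are less certain than their adjusted p states, most of all those that only the likelihood ratio test makes. Single values over libraries were compared by exact permutation tests (SciPy 1.17.1), and intervals of counting error were not used. The gene list, markers and all 10 members, which are each described, were chosen with earlier results of these data known. Other pathway genes were named where called in astrocytes.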

Additional observations from a re-analysis of the deposited data

How the results depend on the processing

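Of 35 calls of a member in a type, 7 were kept in every alternative run and 28 were lost in some, and none of the 35 changed sign. Between genotypes in NR, Aldh1a1 in astrocytes was kept. With rearing over both genotypes these were Aldh1a3 in L2/3, Rarb in L6IT and Rxra in L6CT neurons. Within GR-KO they were Aldh1a1 in VLMCs and Rxra in L6CT neurons, and within GR-Con Rxrg in L5IT neurons. The Rxra comparisons share libraries, and the limits given above for VLMCs and for Rxrg hold here too. RLE normalisation kept 35, the sex term 34, no filter on low counts 28, DESeq2 17 (8 had no adjusted p) and the quasi-likelihood test 10. Aldh1a1 between genotypes in DR astrocytes, not called, was -0.61 without DR GR-Con female and turned to 0.46 without DR GR-Con male.

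In astrocytes, the number of members called was 2 between genotypes in NR (quasi-likelihood test 1, DESeq2 1, dispersions from all 8 libraries 1, with a library left out 1 to 2) and 0 in DR (0 to 2 with a library left out). With rearing it was 1 in GR-Con (quasi-likelihood test 0, a library left out 0 to 2), 1 in GR-KO (dispersions from all 8 libraries 0, a library left out 0 to 2) and 1 over both genotypes (quasi-likelihood test 0, DESeq2 0, a library left out 0 to 1). It was 0 in the interaction (0 to 2 with a library left out) and 0 for genotype over both rearings (sex term 1, which was Rxra, a library left out 0 to 2).

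In the other cell types it was 1 between genotypes in NR (quasi-likelihood test 0, DESeq2 0, sex term 6, a library left out 0 to 7) and 2 in DR (quasi-likelihood test 0, DESeq2 1, no filter 1, sex term 5, a library left out 0 to 11). With rearing it was 8 in GR-Con (quasi-likelihood test 1, DESeq2 3, a library left out 2 to 15), 11 in GR-KO (quasi-likelihood test 3, DESeq2 5, dispersions from all 8 libraries 6, a library left out 5 to 13) and 8 over both genotypes (quasi-likelihood test 5, a library left out 5 to 13). It was 0 in the interaction (sex term 1, a library left out 0 to 3) and 0 for genotype over both rearings (0 to 1). The cause of these moves was not tested. The shares of all genes and pairs called in each of these fits, in astrocytes and elsewhere, are not given here. A move in a count is thus no result about the members alone. Where a group was left with 1 library, that library was taken to vary like the others.

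The difference in the thinned share of astrocyte nuclei with an Aldh1a1 UMI lay between -13.4 and -5.01 percentage points with a library left out, over both rearings pooled. The eGFP difference of -0.65 lay between -0.74 and -0.54, each with an exact permutation p of 0.057, with a library left out (0.057 is the smallest that 3 against 4 libraries allow). By replicate number, no paired analysis was possible because the library names in the cell table give sex and not that number. The sex term, which pairs male with male and female with female libraries across groups, ended 1 of the 35 calls (Aldh1a2 in VLMCs, adjusted p = 0.063). With 2 libraries a group the precision is limited, most of all for members on few UMIs such as Aldh1a3 and Rxrg.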
